A study of Mus musculus with 16 samples.

Results

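The heat shock and endoplasmic reticulum chaperones were chosen by gene symbol as 38 genes of the protein folding machinery, and all 38 were found among the 28683 genes of the count tables. They comprised 5 cytosolic Hsp70 genes, 3 genes of the Hsp110 type, 2 Hsp90 genes, 7 J proteins and cochaperones, 3 small heat shock proteins, 3 mitochondrial chaperones, 10 chaperones of the endoplasmic reticulum and 5 regulators. The rule is by symbol and uses no measured value. Single cells of the hypothalamus and preoptic area were profiled by Drop-seq, in which the transcripts of each droplet share a barcode and every captured molecule is tagged by a unique identifier (UMI). Each of the 16 libraries came from 1 female mouse, 8 to 10 weeks old at the start, on a mixed CD-1;129P2 background. The wild-type (WT) groups held 3 mice given oil and 5 given tamoxifen, and the Esr1cKO groups held 4 given oil and 4 given tamoxifen. Esr1cKO mice carried a floxed allele of Esr1, the gene for estrogen receptor alpha, and a BAC transgene with Cre under Nkx2-1 control, so that deletion is limited to cells with a history of Nkx2-1 expression. The WT mice were littermates without Cre. All mice received 28 daily subcutaneous injections, either of tamoxifen at 0.1 mg/kg or of the corn oil and ethanol vehicle, and were killed shortly after the last dose. Tamoxifen is a selective modulator of estrogen receptors. The tissue of every group was dissociated with papain before capture, and the part of this handling of living cells in the levels was not tested.

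Chaperones bind unfolded protein and are released through cycles of ATP hydrolysis in which J proteins deliver substrates to Hsp70 and exchange factors of the Hsp110 and Bag type reset it. Heat, oxidation and proteasome blockade free the factor Hsf1 to bind heat shock elements and to induce Hsp70, Hsp90, J proteins and small heat shock proteins in the cytosol. In the endoplasmic reticulum, the BiP protein made from Hspa5, Grp94 made from Hsp90b1, the lectin chaperones calreticulin and calnexin and the disulfide isomerases fold secreted proteins, and unfolded cargo activates Xbp1, Atf4 and Atf6, the latter acting with other factors at endoplasmic reticulum stress elements. Neuroendocrine cells of the hypothalamus make large amounts of peptide precursor, and unliganded estrogen receptor is held by Hsp90.

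The promoters are shown first because both classes of element are known from genes of this kind. RefSeq promoter windows of the GRCm38.p6 build, from 250 bases before to 50 bases after a gene's start, were matched for 31 of the 38 members and gave 39 windows. A heat shock element was searched as GAA, TTC and GAA or as TTC, GAA and TTC with 2 bases between the units, on both strands, so overlapping matches share units. It occurred in 6 of 39 member windows (15.4%) and in 198 of 32851 windows in all (0.603%). The member genes with a match were Hsph1, Dnajb6, Hspd1 and Hspe1, 4 of the 31 members searched. The Hsph1 windows held the same match, and so did the Dnajb6 windows, so the window count holds the same bases more than once. The shared promoter of Hspd1 and Hspe1, which encode the mitochondrial Hsp60 and Hsp10 partners and are read in opposite directions, and the promoter of Dnajb6 are printed with the 3 units in capitals.
Hspd1, minus strand, chr1:55088051-55088079: gccttccgGAAggTTCtaGAAcggaccgt
Hspe1, plus strand, chr1:55088051-55088079: acggtccgTTCtaGAAccTTCcggaaggc
Dnajb6, plus strand, chr5:29735844-29735872: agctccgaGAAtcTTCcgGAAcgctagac
The Hspd1 and Hspe1 lines are the same 29 bases read on both strands.

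The endoplasmic reticulum stress element was searched as CCAAT, 9 bases of any kind, and CCACG, on both strands. It occurred in 6 of 39 member windows (15.4%) and in 39 of 32851 windows in all (0.119%). Every member with a match was one of the 10 endoplasmic reticulum members, and Hsp90b1 held 2 matches. The runs below carry CCAAT and CCACG in capitals, or their reverse complements ATTGG and CGTGG where the match lies on the other strand of the gene.
Hspa5, plus strand, chr2:34772020-34772048: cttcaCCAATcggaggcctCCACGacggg
Hsp90b1, minus strand, chr10:86705528-86705556: gagtgCGTGGtgaggcacgATTGGtgagt
Hsp90b1, minus strand, chr10:86705633-86705661: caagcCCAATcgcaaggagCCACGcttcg
Calr, minus strand, chr8:84847070-84847098: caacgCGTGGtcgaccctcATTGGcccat
Canx, minus strand, chr11:50325795-50325823: attgaCCAATcaccacgctCCACGaagaa
Pdia6, plus strand, chr12:17266486-17266514: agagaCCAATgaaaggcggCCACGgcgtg
Dnajc3, plus strand, chr14:118937822-118937850: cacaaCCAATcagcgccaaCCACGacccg
A match is a run of letters only. No member window held both elements, and most of the 31 members searched, 4 with a heat shock element and 6 with a stress element set aside, held neither.

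The libraries held 2634253 to 8038158 UMIs, and 55675 cells passed the filter, with a median depth of 563 to 819 UMIs per cell. Every one of the 9 cell types used here took its name from its own markers, although the endothelial cluster also held mural markers and the fibroblast cluster held Tshb, a pituitary hormone gene, among its leading genes. WT oil replicate 3 and Esr1cKO tamoxifen replicate 3, numbered 10 and 11 in the labels, stood apart in several measures. Their lists held only barcodes with at least 100 genes and those of the other 14 libraries barcodes with at least 20, although every kept cell had over 200. Esr1 gave 62 and 55 UMIs in them, against 100 to 298 elsewhere. The median mitochondrial share of their cells, 7.55% and 9.3%, lay within the 3.1% to 10.3% of the other libraries. Library 10 had the highest share of ependymal cells, 10.9%. Libraries 10 and 11 were also highest in the share of UMIs from the 38 members, 1.41% and 1.46% against 0.93% to 1.25% in the other libraries. In sums over all kept cells, 24 of the 38 members were highest in library 10 or 11. Group results are therefore given with and without this pair. Library 10 is 1 of the 3 WT oil mice and library 11 is 1 of the 4 Esr1cKO tamoxifen mice, so values without them rest on fewer mice. Both were high in the members, so leaving them out lowers the members in these groups. WT tamoxifen replicates 4 and 5 (numbers 13 and 16) shared 359 cell barcodes, of 520 barcodes found in more than 1 library. Esr1, as a check of the genotype, stood in neurons at 44.1 to 86.5 counts per 1000000 UMIs (CPM) in the WT libraries and at 17.1 to 73.8 in the Esr1cKO libraries, and these ranges overlap. The counts come from the 3′ ends of transcripts, which can lie outside the deleted exon, and where the reads fall was not tested. This level is therefore no sure check of deletion. The paper likewise detected no significant decrease of Esr1 transcripts, but found staining for estrogen receptor alpha lost in several areas of the hypothalamus and preoptic area.

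The members took up different shares of the transcripts of each cell type. They made up 1.62% ± 0.294 (SD, n = 16) of the UMIs of ependymal cells and 1.38% ± 0.163 of those of neurons. Astrocytes were lowest at 0.607% ± 0.0628, and no astrocyte library, at 0.537% to 0.758%, reached the lowest of ependymal cells at 1.14%. The other types lay between 0.837% in mural cells and 1.19% in fibroblasts. Hsp90aa1 and Hsp90ab1 together supplied 0.747% of ependymal, 0.555% of neuronal and 0.123% of astrocytic UMIs. The endoplasmic reticulum members had another order, with 0.563% in fibroblasts, 0.505% in microglia and 0.484% in ependymal cells, against 0.273% in mural cells and 0.3% in astrocytes. Cell types were found without the members among the clustering genes. Their levels are means over libraries of each library's CPM, and the errors are SDs over the 16 mice.

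Of the 38 members, 11 had their highest mean in neurons, 9 in fibroblasts, 7 in ependymal cells, 4 in microglia, 3 in endothelial cells, 2 in mural cells, 1 each in oligodendrocytes and polydendrocytes (oligodendrocyte precursors) and 0 in astrocytes. Astrocytes were the lowest type for 10 members. The median ratio of the highest to the second type was 1.25 and that of the highest to the lowest was 3.41. Most neighbours in the order of types did not differ beyond their spread. Only 21 of 304 neighbouring pairs lay apart by more than their SDs, and the highest type lay above the second in every library for 7 members. In the map of members by cell type, the small heat shock proteins, Hspa1a, Hspa1b, Hspa2, Bag3 and Dnajb1 change strongly from column to column, while the mitochondrial and most endoplasmic reticulum members vary less.

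**Figure D1:**
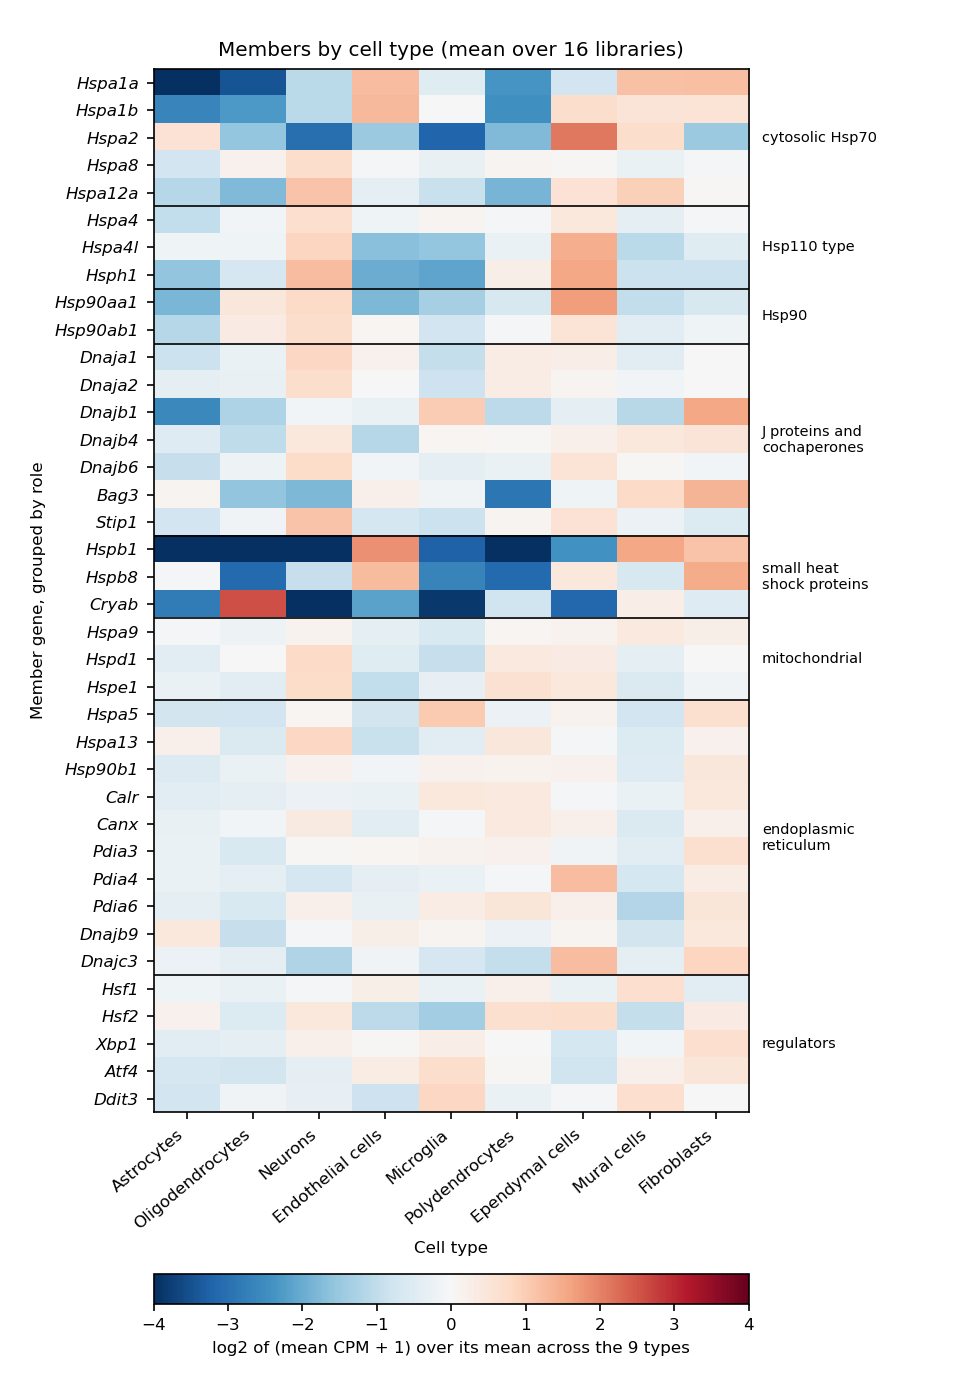
Each row is 1 of the 38 members, grouped by role, each column 1 of 9 cell types, and the colour gives log2 of the mean CPM over 16 libraries plus 1, relative to the row's mean over the types. Rows with strong contrasts include the 3 small heat shock proteins, Hspa1a and Hspa2, with Cryab highest in oligodendrocytes and Hspb1 in the 3 vascular and connective types.

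Cryab, the alpha B-crystallin chaperone of lens, muscle and glia, was highest in oligodendrocytes. Its CPM in oligodendrocytes was lowest at 1215, in the middle at 1689 and highest at 3019 over the 16 libraries, with a mean of 1769 ± 516. Mural cells came second at 356.6 ± 110, and the oligodendrocyte level was 4.96 times theirs and above it in 16 of 16 libraries. Fibroblasts followed at 206 ± 51.6 and polydendrocytes at 168.7 ± 79.5. Neurons were lowest at 9.847 ± 4.92 CPM. Free RNA in the droplets was not estimated or subtracted, and its part in such low levels was not tested.

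Hspa2, an Hsp70 known best from the testis, was the other member whose highest type was at least 2 times the second. Its CPM in ependymal cells ran from 231.9 to 544.5 with a median of 368.5 and a mean of 382.4 ± 79.9. Mural cells followed at 145.5 ± 66.5 and astrocytes at 131.5 ± 25.1, a pair that did not differ beyond its spread. The ependymal level exceeded the mural one 2.63 times and in 16 of 16 libraries. Neurons at 9.994 ± 4.82 and microglia at 8.926 ± 5.84 CPM stood lowest.

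Hspb1 (Hsp27) and the stress-inducible Hsp70 gene Hspa1a were instead high in endothelial cells, mural cells and fibroblasts alike. The endothelial cluster also held mural markers, as given above, and their part in these levels was not tested. Hspb1 reached 670.7 ± 111 CPM in endothelial cells (467.6 to 844.1), 547.7 ± 122 in mural cells (315.8 to 744.7) and 414.7 ± 160 in fibroblasts (225.5 to 674.3), and these ranges overlap. Its endothelial level was above the mural one in 13 of 16 libraries. Hspb1 stood at 1.52 to 3.885 CPM in astrocytes, oligodendrocytes, neurons and polydendrocytes. The Hspa1a means were 240.4 ± 54.2 in endothelial cells, 231.8 ± 90.8 in fibroblasts and 227.7 ± 98.4 in mural cells. These 3 did not differ beyond their spread, and with UMIs pooled over libraries mural cells took the highest place. Microglia came next at 71.49 ± 26, then ependymal cells at 59.37 ± 32.6 and neurons at 46.97 ± 17.6, and astrocytes were lowest at 3.075 ± 3.17 CPM from 26 UMIs in all libraries together. Hspa1b, the near-identical copy of Hspa1a, was also highest in endothelial cells at 38.45 ± 15.1 CPM and lowest in astrocytes at 1.568 ± 2.24. Reads may be split between these 2 copies in a way that the counting decides, so the level of each is uncertain.

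Many of the remaining heat shock genes had their highest means in neurons or ependymal cells. Hsp90aa1, the inducible cytosolic Hsp90, averaged 4930 ± 1470 CPM in ependymal cells, 2663 ± 336 in neurons and 2143 ± 269 in oligodendrocytes, but 438.6 ± 68.4 in astrocytes. Hsp90ab1, its constitutive partner, was highest in neurons at 2882 ± 359, closely followed by ependymal cells at 2545 CPM. Hsph1 and Hspa4l, exchange factors of the Hsp110 type, led in ependymal cells at 403.5 ± 130 and 324.7 ± 95.9 and had neurons second at 329.8 and 216.4 CPM. The constitutive Hsp70 gene Hspa8 was highest in neurons at 539.5 ± 132, against 194.2 ± 56.3 in astrocytes. Dnaja1, Dnaja2 and Stip1, which links Hsp70 to Hsp90, were above their second type in neurons in 16 of 16 libraries, at ratios of 1.45, 1.33 and 1.45. Hspd1, above its second type in 16 of 16 libraries too, stood at 338 ± 54.8 CPM in neurons, 1.32 times the polydendrocyte level.

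Dnajb1, the main inducible J protein, had another pattern. It averaged 273.9 ± 152 CPM in fibroblasts and 187.3 ± 70.3 in microglia, and 14.87 ± 6.3 in astrocytes. The fibroblast libraries ranged from 127.4 to 619.5 and overlapped those of microglia at 96.47 to 363.8. Bag3 (74.09 ± 34.2) and Hspb8 (57.47 ± 29.6), which act together in the clearance of misfolded protein, also had their highest means in fibroblasts, and Hspb8 stood at 1.456 CPM in oligodendrocytes. Dnajb4 and Dnajb6 led in fibroblasts and neurons at 135 and 259.7 CPM, only 1.05 and 1.14 times their second type. Hspa12a was highest in neurons at 71.94 ± 14.3 and Hspa4 in neurons at 234.1 ± 42.1.

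**Figure D2:**
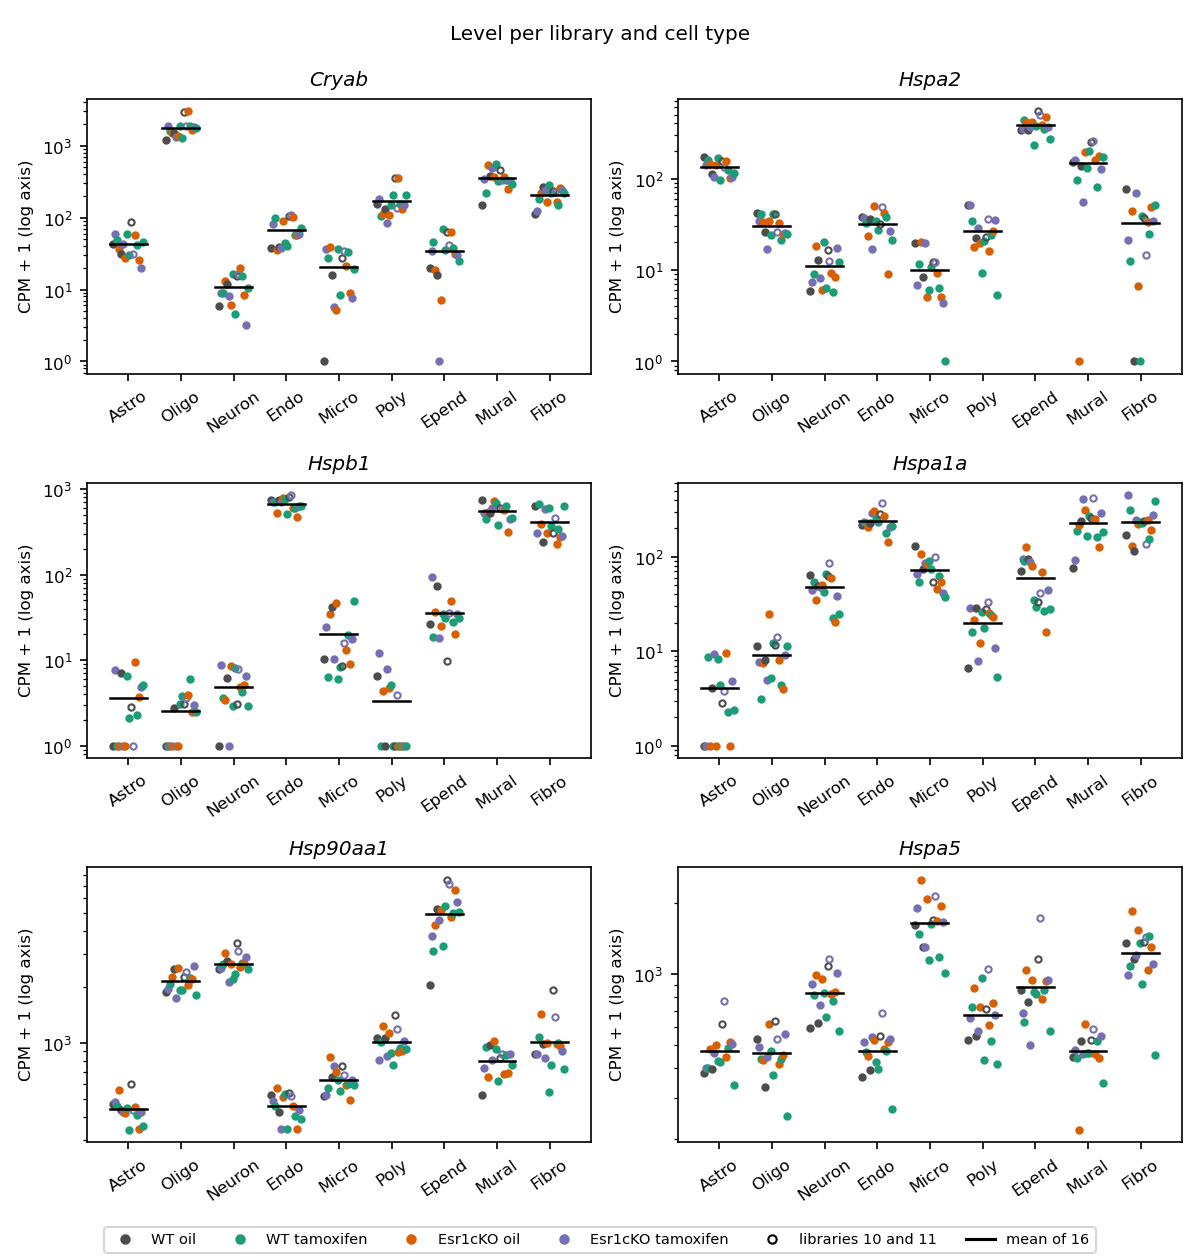
Each point is 1 library's CPM plus 1 on a log axis in 1 cell type for Cryab, Hspa2, Hspb1, Hspa1a, Hsp90aa1 and Hspa5, coloured by group, with open circles for libraries 10 and 11 and a bar at the mean of 16. The oligodendrocyte points of Cryab, at 1215 to 3019 CPM, lie above all others of that gene, and the 4 groups are intermingled within each type.

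The endoplasmic reticulum members were less unequal between types. Hspa5 (BiP) was highest in microglia at 1017, 1648 and 2526 CPM as the lowest, median and highest library (mean 1646 ± 407), ahead of fibroblasts at 1226 ± 314 in 14 of 16 libraries. Ependymal cells at 880 ± 285 and neurons at 836 ± 175 followed, and oligodendrocytes were lowest at 461.8 ± 98.5. Pdia4 and Dnajc3 had their highest means in ependymal cells, at 230.4 ± 60 and 647.9 ± 128 CPM. Dnajc3 lay above fibroblasts, at 504.4 ± 96.4 CPM, only 1.28 times and in 13 of 16 libraries. Pdia4 lay above fibroblasts 1.94 times and in 16 of 16 libraries, and Dnajc3, which also restrains the kinase arm of the stress response, had its lowest level in neurons at 119.6 ± 22.2. Hsp90b1 (1458 ± 285), Pdia3 (548.8 ± 111), Pdia6 (215.1 ± 69.7) and Dnajb9 (94.77 ± 46) had their highest means in fibroblasts, by ratios of 1.21, 1.39, 1.01 and 1. Calr was near equal in microglia (589.9) and fibroblasts (581.6), and Canx was highest in polydendrocytes at 955.7 and lowest in mural cells at 480.5. Hspa13 was highest in neurons at 77.75 ± 19.2. Together the 10 members summed to 5631 CPM in fibroblasts, 5053 in microglia and 2730 in mural cells. The fibroblast cluster held Tshb among its leading genes, as given above, and the part of such cells in its levels was not tested.

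Of the regulators, Atf4 (205.7 ± 31.6) and Ddit3 (95.39 ± 29.3), whose CHOP protein acts late in the unfolded protein response, had their highest means in microglia. Atf4 lay above its second type in 12 of 16 libraries. Ddit3 lay above mural cells, at 85.51 ± 50.6, in only 8 of 16. Xbp1 had its highest mean in fibroblasts at 123.5 ± 42 CPM, above microglia in 12 of 16 libraries. Hsf1 had its highest mean in mural cells at 30.37 ± 26.5, a spread almost as wide as the level. Hsf2 was near equal in ependymal cells at 66.69 ± 13 and polydendrocytes at 62.61 ± 23.3, and with UMIs pooled over libraries polydendrocytes took the highest place. Hspa9 (mitochondrial Hsp70, 231 ± 79.8 in mural cells) and Hspe1 (310.2 ± 51.2 in neurons) completed the list, at 1.12 and 1.1 times their second type.

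Among neurons the endoplasmic reticulum members were high or low together in several clusters. Neurons were clustered again without the members, and 19 clusters with at least 100 neurons, each called by its leading gene, held 8842 of the 9142 neurons. The member share of UMIs ran from 0.424% in the Banf2 cluster to 2.12% in the Tac2 cluster. All 10 endoplasmic reticulum members stood above the other neurons, by pooled CPM, in 4 clusters, those led by Pmch, Defb18, Tac2 and Gpr50, with median ratios of 2.53, 2.04, 1.96 and 1.23. Pmch is the precursor of melanin-concentrating hormone, Tac2 that of neurokinin B, and the Defb18 cluster had the oxytocin gene Oxt as its second gene. In the Banf2, Foxb1 and Gm5741 clusters 0 of 10 stood above, with median ratios of 0.311, 0.663 and 0.714. The low ratios of the Banf2 cluster were not particular to this group. Hspa8 stood there at 0.138, Hspe1 at 0.131 and Hsp90ab1 at 0.215, though Hsf1 stood at 1.35. These ratios come from cells and carry no test, and libraries were compared only where they held at least 10 neurons of a cluster.

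In the Pmch cluster, Hsp90b1 stood at 1145, 4181 and 5793 CPM as the lowest, median and highest of 12 libraries, against 863.4, 1128 and 1560 in their other neurons. It was above them in 12 of 12 libraries, 3.2 times by pooled UMIs. Hspa5 was at 723.4, 2609 and 3093 against 515.2, 804 and 1167 (11 of 12 libraries, 2.89 times). Calr, which folds glycoproteins with Canx, reached 3.38 times in 11 of 12 libraries and Canx 3.11 times in 10 of 12. The cluster's 404 neurons were shallow, with a median of 372.5 UMIs, so that the Hsp90b1 value rests on 735 UMIs and the Calr value on 241.

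The Defb18 and Tac2 clusters were the deepest besides Gpr50, at median depths of 3154.5 and 4259 UMIs. In the Defb18 cluster Hspa5 was at 1208 to 3056 CPM with a median of 2049 over 9 libraries, and in the other neurons of those libraries at 734.1 to 1108, so the ranges did not overlap. It was 2.41 times higher by pooled UMIs, and Pdia4 (2.74 times) and Dnajb9 (2.69 times), an endoplasmic reticulum J protein, also lay above in 9 of 9 libraries. In the Tac2 cluster of 106 neurons, Pdia3 stood at 943.2 to 1468 CPM in 4 libraries against 300 to 387.2 in their other neurons. Its ratio was 3.08, and Hspa5 followed at 2.58, both in 4 of 4 libraries.

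**Figure D3:**
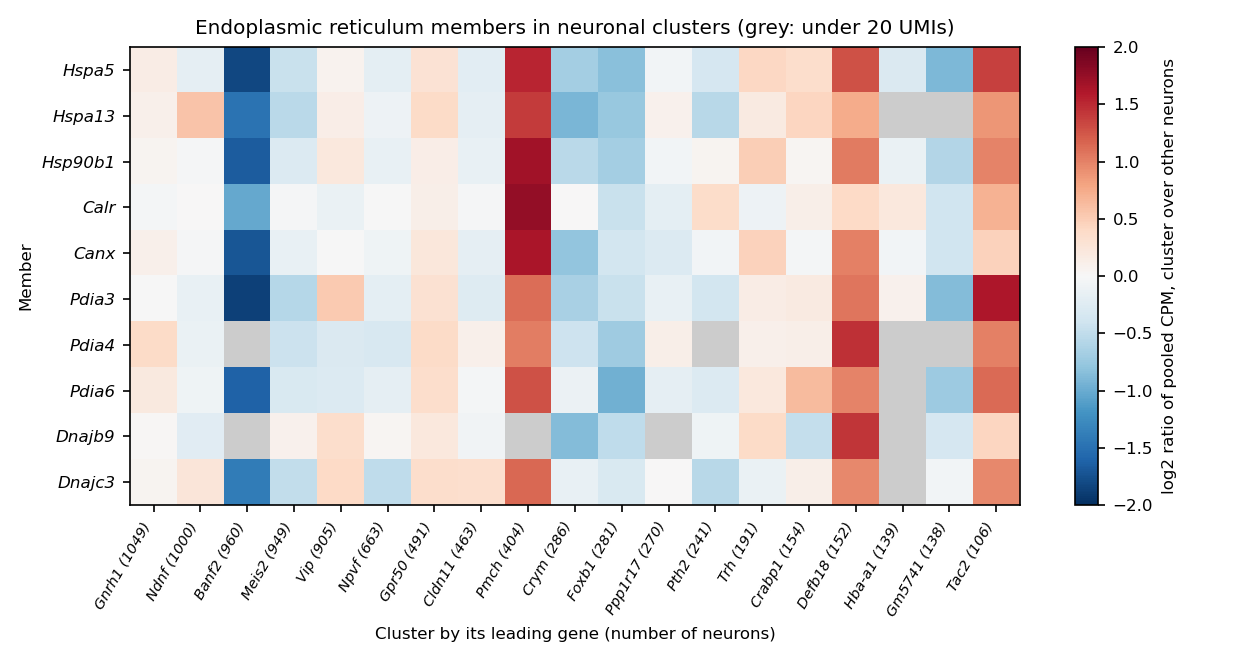
Rows are the 10 endoplasmic reticulum members and columns the 19 neuronal clusters by leading gene, with the number of neurons in brackets; the colour gives log2 of the pooled CPM in the cluster over that in the other neurons, and grey marks values under 20 UMIs. The Pmch, Defb18 and Tac2 columns are above 0 in every filled row, while the Banf2 column is below 0 throughout.

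Members outside the endoplasmic reticulum group were high in the Tac2 cluster too, where Hspe1 stood 2.51 and Hsph1 2.29 times above the other neurons, each in 4 of 4 libraries, and in further clusters. The Gnrh1 cluster, the largest at 1049 neurons, had Cga as its second gene, and its leading gene does not name a cell type. In this cluster, Dnajb1 was at 67.96, 153 and 249.4 CPM as lowest, median and highest of 16 libraries against 49.05, 72.93 and 101.8 in the other neurons (2.09 times, above in 16 of 16). Hspa1a was there at 31.66, 98.35 and 169.5 against 14.01, 40.59 and 69.95 (2.65 times, 14 of 16). The endoplasmic reticulum members had a median ratio of 1.06 in the same cluster. Hspa2 and Hspa12a were 10.9 and 2.37 times higher in the Crym cluster, in 7 of 7 libraries. Cryab was 19.2 times higher in the Cldn11 cluster, whose 3 leading genes are Cldn11, Gjc3 and Opalin, known from oligodendrocytes. The part of oligodendrocyte transcripts in this value was not tested. Of 448 pairs of member and cluster with at least 50 UMIs, 27 reached 2 times or more.

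The spread between mice was next taken as the SD of log2 CPM over all 16 libraries, in sums over all kept cells. The median over the members was 0.256, below the 0.334 of all 16626 genes tested and above the 0.202 of 12 immediate early genes. This SD depends on the number of UMIs, and beside the 200 genes nearest in total UMIs the members' median percentile was 51. The median SD without libraries 10 and 11 was 0.214 for the members and 0.285 for all genes. Canx varied least at 0.13. The 6 members with the widest spread were Hspa1b (0.485), Hspa2 (0.436), Hsph1 (0.432), Hspb1 (0.394), Hspa1a (0.382) and Cryab (0.376). Counting error alone would give 0.23 for Hspa1b and 0.0484 to 0.103 for the other 5.

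Hspa1b ran from 6.735 CPM in WT tamoxifen replicate 5 through a median of 10.97 to 24.25 in Esr1cKO tamoxifen replicate 2. By group it was 8.65, 12.81 and 14.25 in WT oil and 6.735, 8.355, 8.657, 11.04 and 12.83 in WT tamoxifen. Its Esr1cKO values were 8.142, 8.621, 10.9 and 11.74 with oil and 10.49, 16.5, 20.39 and 24.25 with tamoxifen. Thus 3 of 4 Esr1cKO tamoxifen libraries were above all others, and 1 was not. Hspa1a had the order 61.71, 66.91 and 74.92 in WT oil, 52.88, 54.25, 58.35, 61.17 and 90.34 in WT tamoxifen, 41.51, 49.74, 77.15 and 82.5 in Esr1cKO oil and 67.99, 73.43, 100.4 and 113.9 in Esr1cKO tamoxifen, and all 4 groups overlap.

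Hspa2 was highest in WT oil replicate 3 at 144 CPM, and the other 15 libraries ran from 40.04 to 80.08. Its SD was 0.309 without libraries 10 and 11. Hsph1 ran from 85.81 to 281.4 with a median of 188.3, Hspb1 from 58.36 to 173.1 with a median of 119.5, and Cryab from 171.2 to 476.3 with a median of 297.5. Their groups overlap in the plot of members by group. In these sums over all cells a different share of endothelial or ependymal cells and a different level per cell cannot be told apart, and the levels within types are those given above. Endothelial cells made up 8.9% to 17.9% of the cells of a library and ependymal cells 2.35% to 10.9%.

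**Figure D4:**
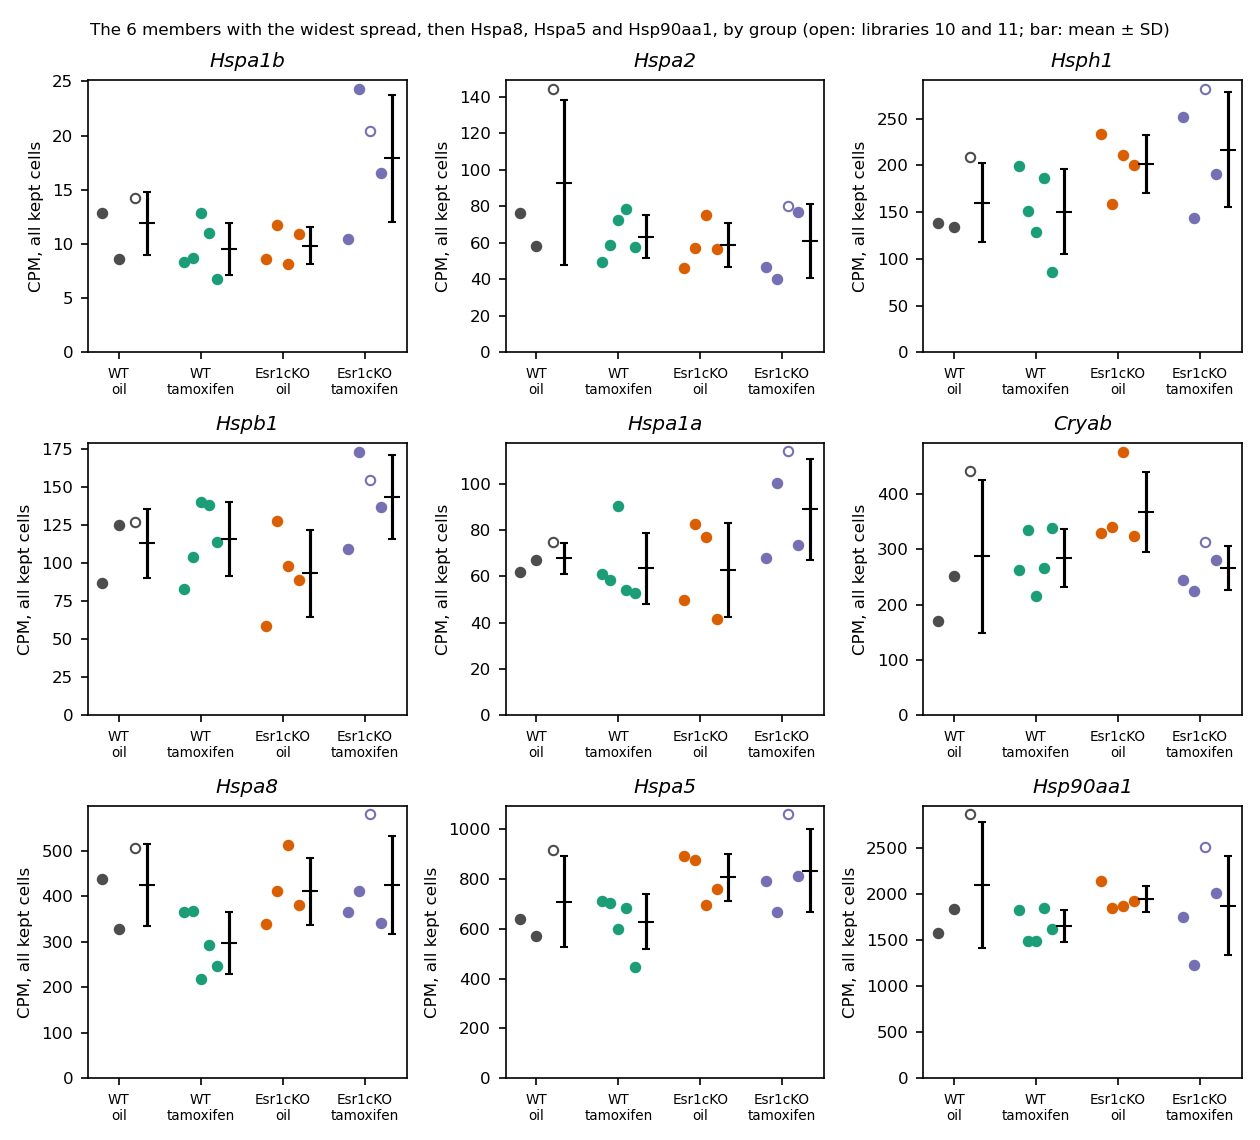
Each point is 1 library's CPM over all kept cells, by group, for the 6 members with the widest spread and for Hspa8, Hspa5 and Hsp90aa1; bars give mean ± SD and open circles mark libraries 10 and 11. The groups overlap in most panels, and in Hspa8 the 5 WT tamoxifen libraries lie at 217.3 to 368.1 CPM beside 327.7 to 507 in WT oil.

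Pairs of members were compared across the 14 libraries without numbers 10 and 11, with permutation tests and Benjamini-Hochberg adjustment over 5 relations. Hspa1a and Hspa1b gave a Pearson's r of 0.581 (permutation p = 0.0294, adjusted 0.113) and a Spearman's rho of 0.525 (permutation p = 0.0544, adjusted 0.107), and r was 0.504 without the 2 libraries farthest from the median. Hspa5 and Hsp90b1 gave r = 0.537 (permutation p = 0.0467, adjusted 0.113) and rho = 0.635 (permutation p = 0.0176, adjusted 0.0881), with r = 0.653 without 2 libraries. For Hspa1a with Dnajb1, r was 0.338 (permutation p = 0.237, adjusted 0.296) and rho 0.481 (permutation p = 0.0853, adjusted 0.107), with r = 0.282 without 2 libraries. For Hspa1a with Hspa5, r was -0.00865 (permutation p = 0.974, adjusted 0.974) and rho -0.103 (permutation p = 0.724, adjusted 0.724), with r = 0.135 without 2. For Hspa1a with the immediate early gene Fos, r was 0.499 (permutation p = 0.0681, adjusted 0.113) and rho 0.495 (permutation p = 0.0765, adjusted 0.107), with r = 0.312 without 2. Thus 0 of the 5 relations passed the adjustment. With all 16 libraries r was 0.684 for Hspa1a with Hspa1b (permutation p = 0.0038, adjusted 0.0095), 0.717 for Hspa5 with Hsp90b1 (permutation p = 0.00168, adjusted 0.0084) and 0.566 for Hspa1a with Fos (permutation p = 0.02, adjusted 0.0333), so these 3 calls rest on libraries 10 and 11. The 4 groups are pooled here, and no value within groups was computed.

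The first question of the design is whether tamoxifen moved the chaperones in WT mice. For each cell type the UMIs of a library's cells were added up, and these sums were fitted in edgeR's quasi-likelihood model of the 4 groups, in which 289 pairs of member and cell type and, over all kept cells, 38 members passed the filter on low counts. No pair (0 of 289) and no member over all kept cells (0 of 38) passed an adjusted p of 0.05 in edgeR or in DESeq2, and 0% of all 65469 gene and type pairs and 0% of 16626 genes did. At an unadjusted p under 0.05, 21 pairs were counted in edgeR, 3 with a positive and 18 with a negative log2 fold change, which is 7.27% against 3.23% over all genes. DESeq2 counted 2 and 14. Over all kept cells it was 1 of 38, against 1.87% of all genes. Without libraries 10 and 11 the 18 negative pairs became 6 and the 3 positive became 8. These are of 288 member pairs, beside 1755 negative and 1722 positive of 66984 pairs over all genes. With successive fours of library numbers as a block the member counts were 3 positive and 9 negative.

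Hspa8 made up 6 of those 18 negative pairs. Its log2 fold change for tamoxifen against oil was below 0 in 9 of 9 types, from -0.8924 in fibroblasts to -0.1751 in polydendrocytes. In fibroblasts the CPM was 319.1, 341.1 and 491.4 in WT oil and 132.4, 150.9, 213.7, 251.4 and 296.3 in WT tamoxifen, without overlap (log2 fold change -0.89 ± 0.299 SE, unadjusted p = 0.00724, adjusted p = 0.999 in edgeR's quasi-likelihood test). In microglia it was 307.8, 349.1 and 391.8 against 159.6, 165.2, 177.4, 245.9 and 247.6 (-0.84 ± 0.281, unadjusted p = 0.00741, adjusted p = 0.999, same test). The 9 types come from the same 8 mice, and are not 9 independent results. Without libraries 10 and 11 the value stayed below 0 in 9 of 9 types, with a median of -0.391 in place of -0.539, and 1 type in place of 6 had an unadjusted p under 0.05. Hspa8 was picked out over types after its values were seen. The fibroblast and microglia pairs, like those named below, were chosen for their small unadjusted p. The share of pairs without overlap over all genes is not given, so a lack of overlap adds no support.

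Hspa4l, the exchange factor of the Hsp110 type, gave the smallest unadjusted p of the contrast in endothelial cells. Its CPM was 50.18, 52.11 and 60.12 with oil and 14.08, 20.2, 28.36, 30.34 and 37.17 with tamoxifen, without overlap (log2 fold change -0.99 ± 0.323, unadjusted p = 0.00649, adjusted p = 1 in edgeR's quasi-likelihood test). The Hspa4l values rest on 7 to 29 UMIs per library with oil and 4 to 44 with tamoxifen. By role, cytosolic Hsp70 pairs had a median of -0.294 with 23 of 28 below 0, and Hsp90 pairs -0.167 with 18 of 18 below 0. Over all genes 30509 of 65469 pairs lay below 0. The 18 Hsp90 pairs are 2 genes in 9 types of the same mice, and pairs of 1 role are not independent results. The endoplasmic reticulum pairs had a median of -0.0741 with 58 of 85 below 0. These medians were -0.103, -0.046 and 0.0836 without libraries 10 and 11.

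In Esr1cKO mice the same question gave 0 of 289 pairs and 0 of 38 members past the adjusted threshold in edgeR and DESeq2, with 0% of all genes in either set. At an unadjusted p under 0.05 edgeR counted 6 positive pairs and 1 negative, 2.42% against 3.62% over all genes, and DESeq2 5 and 1. Over all kept cells edgeR counted 2 of 38, Hspa1b and Hspb1, against 3.25% of genes. Endothelial cells, in which both genes were highest, made up 11.8% ± 1.9 of cells with oil and 14.55% ± 2.11 with tamoxifen (n = 4 each). The part of this share in the values over all kept cells was not tested. Without libraries 10 and 11 the pairs were 1 positive and 5 negative of 288, beside 1481 and 1520 of 66984 over all genes. Over all kept cells 2 members were then positive and 1 negative. Xbp1, which is spliced to an active factor under endoplasmic reticulum stress, supplied 3 of the 6 positive pairs found with all 16 libraries. In ependymal cells it stood at 17.83, 24.18, 34.13 and 43.67 CPM with oil and 34.46, 42.29, 54.54 and 84.84 with tamoxifen, which overlap (log2 fold change 0.89 ± 0.352, unadjusted p = 0.0194, adjusted p = 1 in edgeR's quasi-likelihood test). These values rest on only 2, 4, 9 and 21 UMIs with oil and 2, 5, 24 and 44 with tamoxifen, in the same order. The highest, 84.84 CPM, is that of library 11. The counts do not tell the spliced form of Xbp1 from the unspliced.

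Dnajb4 in microglia was the negative pair. It was at 118.6, 125.2, 127.5 and 135.2 CPM with oil and 59.91, 69.86, 94.25 and 98.28 with tamoxifen, without overlap (log2 fold change -0.69 ± 0.23, unadjusted p = 0.00758, adjusted p = 0.972 in edgeR's quasi-likelihood test). Hspa1b in endothelial cells was at 21.18, 27.1, 30.14 and 48.44 with oil and 29.24, 50.68, 66.9 and 72.05 with tamoxifen, which overlap (0.84 ± 0.307, unadjusted p = 0.0127, adjusted p = 1). The Hspa1b values rest on 8 to 17 UMIs per library with oil and 17 to 55 with tamoxifen. Over all kept cells the log2 fold change of Hspa1b was 0.85 ± 0.274 (unadjusted p = 0.00698, adjusted p = 1 in edgeR's test), the smallest unadjusted p of any member there.

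Genotype was compared under each treatment. With oil, 0 of 289 pairs and 0 of 38 members passed in edgeR and DESeq2, as did 0% of all pairs and 0% of all genes. Unadjusted, 9 pairs were positive and 1 negative for Esr1cKO against WT, 3.46% beside 4.84% of all genes, and over all kept cells 1 of 38 (Dnajb4) beside 5.8%. Dnajb4, a J protein of the Dnajb1 family, was the member of 2 of the 3 named pairs. In neurons it stood at 85.18, 112.6 and 124.8 CPM in WT and at 131.8, 139.8, 144.7 and 145.6 in Esr1cKO, without overlap (log2 fold change 0.42 ± 0.143, unadjusted p = 0.00847, adjusted p = 1 in edgeR's quasi-likelihood test). In microglia it was at 71.33, 74.63 and 96.41 in WT, below all 4 Esr1cKO oil libraries given above (0.63 ± 0.255, unadjusted p = 0.0219, adjusted p = 0.773). Hspa12a in endothelial cells was at 7.445, 15.44 and 16.59 in WT and 26.38, 27.69, 30.28 and 37.04 in Esr1cKO, without overlap (1.03 ± 0.335, unadjusted p = 0.00758, adjusted p = 0.908 in edgeR's test). These values rest on only 1, 8 and 8 UMIs in WT and 7, 17, 19 and 13 in Esr1cKO, in the same order. Without libraries 10 and 11 the unadjusted counts were 20 positive and 1 negative, and 7 of them were endoplasmic reticulum pairs in place of 0. These are of 288 member pairs, and over all genes the counts were 1935 and 2056 of 66984 pairs. Over all kept cells 6 of 38 members were then positive and 0 negative, beside 607 and 657 of 16844 genes.

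Under tamoxifen, 0 of 289 pairs and 0 of 38 members passed the adjusted threshold in edgeR and DESeq2, beside 1 of 65469 pairs over all genes (0.00153%, Nov in neurons) and 0% of genes over all kept cells. The unadjusted count was 22 pairs, all positive for Esr1cKO against WT, 7.61% of members against 3.22% of all genes. Over all kept cells it was 6 of 38, Hspa1a, Hspa1b, Hspa8, Hsph1, Hspa5 and Pdia6, against 2.71% of all genes. Without libraries 10 and 11 this fell to 1 of 38, beside 254 positive and 251 negative of 16844 genes. Leaving out library 11 alone also gave 1 of 38. Cytosolic Hsp70 supplied 8 of the 22 pairs and the endoplasmic reticulum 6. Without Esr1cKO tamoxifen replicate 3 (library 11) the count was 10 pairs, and without WT oil replicate 3 (library 10), which only enters through the shared spread, it was 30. Without both it was 11 positive and 2 negative of 288 member pairs, beside 1154 and 1267 of 66984 pairs over all genes.

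Ependymal cells held the pairs with the smallest p of this contrast. As above, a lack of overlap in pairs named for a small p adds no support. Dnaja1, the J protein that feeds Hsp70 and Hsp90, was at 192.3, 196.8, 223.2, 264.9 and 276 CPM in WT tamoxifen and 331.8, 350.9, 397.5 and 430.8 in Esr1cKO tamoxifen, without overlap (log2 fold change 0.68 ± 0.188, unadjusted p = 0.00175, adjusted p = 1 in edgeR's quasi-likelihood test). Hspa8 was at 160.6, 183.6, 238.7, 267.8 and 305.5 against 327.2, 422.9, 430.8 and 507.1, also without overlap (0.88 ± 0.256, unadjusted p = 0.00265, adjusted p = 1). Hspa1b in endothelial cells was at 20.2, 25.89, 26.97, 36.32 and 38.73 in WT tamoxifen, and the 4 Esr1cKO tamoxifen values given above overlap with these (0.91 ± 0.28, unadjusted p = 0.00434, adjusted p = 1 in edgeR's test).

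Hspa8 was above 0 in 9 of 9 types (0.3445 to 0.877), with an unadjusted p under 0.05 in 6, and without libraries 10 and 11 still in 9 of 9 with 2 such types. Hspa5 was above 0 in 9 of 9 types with 3 such types, and in 8 of 9 with 1 without that pair. Hsph1 was above 0 in 8 of the 8 types in which it was tested, with 2 such types, and in 7 of 7 with 3. These members were picked out after their values were seen, and the types come from the same mice. Signs over types were not counted for other genes. Of member pairs 224 of 289 were above 0, beside 30956 of 65469 over all genes. Without libraries 10 and 11 it was 173 of 288, beside 33330 of 66984. The WT tamoxifen libraries enter both this contrast and that of tamoxifen against oil in WT mice, with opposite sign, so the values of Hspa8 in the 2 contrasts are not independent. The 12 immediate early genes, which follow cell activity and dissociation, were above 0 in 12 of 12 over all kept cells, with a median log2 fold change of 0.258 here, and below 0 in 12 of 12 with a median of -0.172 for tamoxifen against oil in WT mice. Leaving out libraries 10 and 11 gave 0.199 (12 of 12 above 0) and -0.0625 (8 of 12 below 0). Of all 16626 genes, 8230 were above 0 in the first contrast and 7578 below 0 in the second. Within types, 12 of 12 were above 0 in endothelial, ependymal and mural cells, but 7 of 12 in neurons and 4 of 11 in oligodendrocytes. In the second contrast 12 of 12 were below 0 in endothelial and ependymal cells, but 7 of 12 in neurons. The part of these early genes in the member values was not tested. Astrocytes, with the lowest member share, made up 27.18% ± 4.2 of cells in WT tamoxifen (n = 5) and 20.82% ± 4.13 in Esr1cKO tamoxifen (n = 4), and the median over pairs within types was 0.166.

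The interaction asks whether tamoxifen acted differently in the 2 genotypes, as the fold change in Esr1cKO mice less that in WT mice. No pair (0 of 289) and no member over all kept cells (0 of 38) passed in edgeR or DESeq2, beside 0% of all pairs and 0% of genes. Unadjusted, 13 pairs were positive and 2 negative (5.19%, beside 4.86% of all genes), and over all kept cells it was 1 of 38, Hspa1b, beside 4.26%. Without libraries 10 and 11 the pairs were 4 positive and 7 negative of 288, beside 1821 and 1954 of 66984 over all genes. The named pairs were Hspa1b in endothelial cells (1.33 ± 0.455, unadjusted p = 0.00873, adjusted p = 0.962 in edgeR's quasi-likelihood test), Dnajb4 in microglia (-0.98 ± 0.337, unadjusted p = 0.00916, adjusted p = 0.814) and Dnaja1 in ependymal cells (0.78 ± 0.282, unadjusted p = 0.0118, adjusted p = 0.952). For Hspa1b the WT oil libraries were at 37.22, 40.53 and 43.54 CPM. Dnajb4 in WT tamoxifen microglia was at 77.07, 81.03, 110.4, 115.9 and 127.1, overlapping the Esr1cKO oil values. Dnaja1 in ependymal cells was at 275.3, 279.7 and 393.9 in WT oil and 267.4, 282.8, 307.2 and 320.3 in Esr1cKO oil.

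Described over all members, the median log2 fold change of the 289 pairs was -0.0983, 0.0131, 0.0325, 0.166 and 0.117 for tamoxifen in WT, tamoxifen in Esr1cKO, genotype under oil, genotype under tamoxifen and the interaction, beside 0.0244, -0.0187, 0.0255, -0.0179 and -0.0381 over all genes. Without libraries 10 and 11 the members gave 0.0315, -0.0884, 0.181, 0.0513 and -0.0872, so that 3 of the 5 medians turned direction. Libraries 10 (WT oil) and 11 (Esr1cKO tamoxifen) were highest in the member share, so leaving them out shifts these medians in a set direction. The plot of contrast medians shows that the open circles without this pair lie on the other side of 0 in both panels for both tamoxifen contrasts and the interaction.

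**Figure D5:**
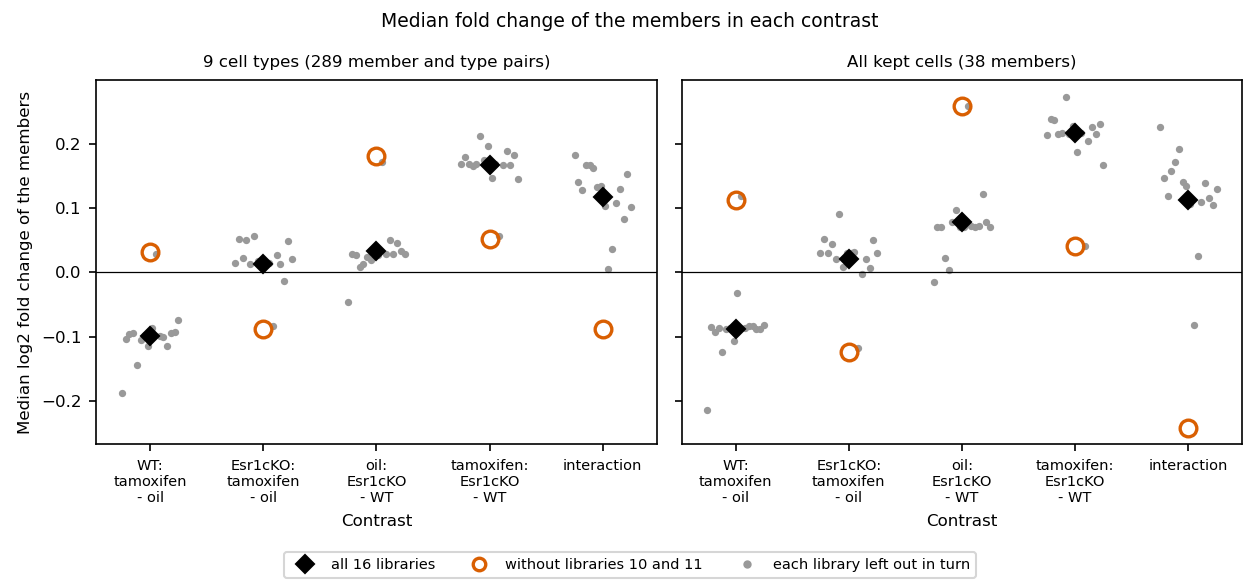
Points give the median log2 fold change of the members in the 5 contrasts, over 289 pairs of member and cell type on the left and over 38 members in all kept cells on the right: diamonds for all 16 libraries, open circles without libraries 10 and 11, grey points with each library left out in turn. In all kept cells the interaction median is 0.112 with all libraries and -0.241 without this pair, and that of genotype under oil is 0.0786 and 0.258.

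The wider chaperone network was described by counts from a list of 63 further genes, among them the chaperonin subunits and the sensors of endoplasmic reticulum stress. Of its 377 pairs tested, 0 passed the adjusted threshold of edgeR's test in any of the 5 contrasts. At an unadjusted p under 0.05 the counts were 9, 14, 7, 15 and 13 in the order given above. These are 2.39%, 3.71%, 1.86%, 3.98% and 3.45% of pairs, beside 3.23%, 3.62%, 4.84%, 3.22% and 4.86% of all genes. They were not recomputed without libraries 10 and 11.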

How the data were processed

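Hypothalamic cells from 16 mice, 1 Drop-seq library each, were analysed. The deposited values were raw UMI counts per gene symbol and cell barcode, which the authors made without pooling mice. The submitters' processing notes name mm10, STAR 2.6 and Seurat, and the counting program and annotation are not given in the sources used here. Following the study's methods, a cell was kept if over 200 but under 4000 genes were detected and mitochondrial UMIs made up less than 15%, which left 1746 to 5568 cells per library. Scrublet called 774 of 55675 cells (1.39%) as doublets, which were kept except in 1 alternative. Cells were aligned between the 4 groups by canonical correlation (Seurat 5.3.0, 2000 genes without the members, 30 dimensions) and clustered on 20 components at resolution 0.05, and neurons again on 500 genes at resolution 0.7. Clusters were named from marker lists. Sums of UMIs over the cells of a type in a library, where it held at least 10, were fitted in edgeR 4.0.16 (R 4.3.3) as 1 quasi-likelihood model of the 4 groups with TMM scaling, filterByExpr and Benjamini-Hochberg adjustment within each type at a threshold of 0.05. DESeq2 1.42.0 was an alternative. Levels are counts per 1000000 UMIs (CPM) of a library and type. The fits were tested on simulated data. Libraries of 1 group differed by more than counting noise in all 25 pairs (chi-square per degree of freedom 4.64 to 32.3), and replicate numbers follow accession order. Correlations used permutations (scipy 1.17.1, 100000 resamples where not enumerated). Per-library values were given for members past the threshold, for the 3 pairs with the smallest unadjusted p per contrast, for members at least 2 times higher in their top type than in the second and for the 6 members with the widest spread, each with at least 200 UMIs. The members, gene lists and tests were chosen with earlier results of these data known. Alternatives changed the scaling, the test, the filters, the libraries and the treatment of doublets.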

Additional observations from a re-analysis of the deposited data

Results flagged for a closer look

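In groups of 4 or 5 libraries, 6 of 54 groups tested held a value whose gap to the nearest other library was large for the group's range by Dixon's criterion, and chance gives about 1 in 20. Cryab in oligodendrocytes was at 3019 CPM in Esr1cKO oil replicate 3, with the other 3 libraries at 1380 to 1640, and over all kept cells it was at 476.3 in the same library beside 324.6 to 339.8. In Esr1cKO tamoxifen replicate 2 Cryab in oligodendrocytes was at 1317, below the others at 1798 to 1883. Hspa2 in ependymal cells was at 495.6 CPM in Esr1cKO tamoxifen replicate 3 (library 11), beside 346.7 to 363.6. Hspa1a over all kept cells was at 90.34 in WT tamoxifen replicate 3, beside 52.88 to 61.17. Xbp1 in ependymal cells was at 75.26 in WT tamoxifen replicate 5, beside 45.25 to 53.57. The causes were not tested.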

How the results depend on the processing

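Many of the 32 results are counts of 0 in contrasts where at most 1 gene passed with all 16 libraries, and say little of stability. Of 691 values of these results under 26 alternatives, 4 changed direction or side of the threshold. The 4 were correlations, which with all 16 libraries in place of 14 were 0.684 (Hspa1a with Hspa1b), 0.566 (Hspa1a with Fos), 0.717 (Hspa5 with Hsp90b1) and, with the sign turned, 0.288 (Hspa1a with Hspa5). The number of members past the adjusted threshold was 0 in each contrast under every alternative, including DESeq2 and each library left out in turn (0 to 0). Over all genes 6, 3, 3, 12 and 16 of 66984 pairs passed without libraries 10 and 11, in the order of contrasts that follows. Unadjusted counts, up and down, changed without libraries 10 and 11 from 3 and 18 to 8 and 6 for tamoxifen in WT mice, from 6 and 1 to 1 and 5 in Esr1cKO mice, from 9 and 1 to 20 and 1 for genotype under oil, from 22 and 0 to 11 and 2 under tamoxifen, and from 13 and 2 to 4 and 7 for the interaction. Over all genes both unadjusted counts rose in each of the 5 contrasts without this pair. Leaving out single libraries gave 11 to 26, 5 to 8, 6 to 14, 10 to 30 and 7 to 23 unadjusted member pairs in the same order of contrasts. Among the 15 named fold changes 0 changed sign. The highest type was the same for 33 to 38 of the 38 members, and Cryab in oligodendrocytes ranged from 1680 to 1917 CPM. The median log2 fold changes over the members, which are not among those results, turned direction without libraries 10 and 11 in 3 of 5 contrasts. This pair was highest in the member share, so the direction of such shifts was set by leaving it out. By replicate number, no paired analysis was possible because the labels give none within groups. The study's methods describe 4 mice a day over 4 days without saying which mice shared a day, and library numbers 1 to 4, 5 to 8 and 9 to 12 each hold 1 library of each group. A fit with such fours of library numbers as a block was possible, and gave 0 members in each contrast and 3 up and 9 down, 8 and 1, 11 and 0, 21 and 0, and 10 and 1 unadjusted pairs in the order above. Leaving out 718 cells whose barcodes libraries 13 and 16 share was chosen after seeing the data. Depth limits low members most, such as Hspa1b with 710 UMIs in all.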
